A study of Mus musculus with 9 samples.

Results

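Enteroendocrine cells are the hormone-secreting cells of the gut epithelium. They are scattered among absorptive and other secretory cells, store peptides in dense-core granules and release them in response to food, and they arise from the same crypt progenitors as the rest of the epithelium. Progenitors in which Notch signaling is low take the secretory path, and a burst of Neurog3 commits a few of them to the endocrine fate. The genes described here are 10 genes of this lineage, chosen by name, and all 10 had a row among the 23955 gene symbols of the count table. They are the transcription factor genes Neurog3 and Neurod1, the granin genes Chga and Chgb, and the hormone precursor genes Cck, Gcg, Gip, Pyy, Sct and Tac1.

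RNA was sequenced from 9 organoid samples in 3 groups of 3. Gut organoids are gel cultures of crypt epithelium that bud and renew themselves. MIN organoids came from the normal gut epithelium next to the adenomas of APCmin/+ mice, which carry a truncating mutation in the tumor suppressor Apc. Adenoma organoids came from the adenomatous polyps of such mice, and Sulindac organoids were adenoma organoids given sulindac, a non-steroidal anti-inflammatory drug. All 3 groups therefore carried the Apc mutation and grew in the same medium with Noggin, EGF, bFGF, R-spondin1 and B27, and no wild-type sample was analysed here. The age, sex and number of the mice, the gut segment, and the dose and duration of sulindac were not given in the sources used here, nor whether samples with the same number came from the same mouse. Where replicates are not independent cultures, p-values measure only the spread between these samples.

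The table held between 30881206 and 48412477 counts per sample. Levels are given as CPM, which scale a sample's counts to 1000000 after TMM normalization, and 3 counts in a library, taken as the floor of detection, lay between 0.0647 and 0.0989 CPM. All 6 epithelial markers of the list (Epcam, Cdh1, Krt8, Krt18, Krt20 and Vil1) had counts in every group, with a summed level of 2905 to 6442 CPM over the 9 samples. The islet hormone genes Ins1 and Ins2, the glial marker Sox10 and the fibroblast collagens (Col1a2, Col3a1) were at 0 in each of the 9 samples, and the 5 leukocyte markers together had 2 to 12 counts per sample. The enteric neuron list was higher in MIN (summed level of 5.16 to 10.6 CPM) than in Adenoma (0.758 to 1.01 CPM), mostly through Ret, while the neuronal genes Elavl4 and Prph had at most 6 counts in any sample. In such bulk samples, fewer endocrine cells and less RNA per cell cannot be told apart.

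The promoters of the genes are shown first because most of the members moved together. All 10 genes had a RefSeq promoter in GRCm38.p6, and the 250 bases before the start are printed here, 5′ to 3′ on the strand of the gene, for Neurog3 (chr10:62132840-62133089, + strand) and Sct (chr7:141279134-141279383, - strand), which had 16 or more counts in every adenoma sample, and for Chga (chr12:102554691-102554940, + strand) and Gcg (chr2:62483654-62483903, - strand), which were nearly absent from them. Capitals mark matches, on either strand, to the E-boxes CAGATG and CAGCTG, the cAMP response element core TGACGT and the TATA box TATAAA.
Neurog3: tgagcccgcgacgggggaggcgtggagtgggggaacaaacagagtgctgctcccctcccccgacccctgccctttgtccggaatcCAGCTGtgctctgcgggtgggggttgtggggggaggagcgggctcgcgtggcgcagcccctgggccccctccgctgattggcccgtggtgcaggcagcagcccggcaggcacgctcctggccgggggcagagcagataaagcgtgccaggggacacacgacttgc
Sct: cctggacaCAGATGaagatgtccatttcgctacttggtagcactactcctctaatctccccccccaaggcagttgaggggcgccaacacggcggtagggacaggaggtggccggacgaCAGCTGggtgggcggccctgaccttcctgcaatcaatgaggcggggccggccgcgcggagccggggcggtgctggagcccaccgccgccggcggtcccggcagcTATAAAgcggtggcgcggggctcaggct
Chga: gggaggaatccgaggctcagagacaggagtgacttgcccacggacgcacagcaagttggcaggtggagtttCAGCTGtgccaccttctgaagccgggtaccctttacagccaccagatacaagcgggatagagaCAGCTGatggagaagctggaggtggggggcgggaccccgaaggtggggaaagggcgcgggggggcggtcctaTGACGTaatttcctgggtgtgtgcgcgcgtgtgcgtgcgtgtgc
Gcg: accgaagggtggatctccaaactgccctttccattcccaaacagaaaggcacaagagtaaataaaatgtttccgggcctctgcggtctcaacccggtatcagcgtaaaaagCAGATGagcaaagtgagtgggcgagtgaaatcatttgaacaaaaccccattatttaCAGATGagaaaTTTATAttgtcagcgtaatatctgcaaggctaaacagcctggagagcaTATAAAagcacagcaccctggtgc
A search of all 10 members for 5 motifs on both strands found CAGATG in 4 (Cck, Gcg, Sct and Tac1), against 14.5% of the 27025 genes with a promoter. CAGCTG was found in 4 (Chga, Gip, Neurog3 and Sct), against 12.8% of all genes. TGACGT was found in Chga and Chgb, against 6.56% of all genes, and TATAAA in Gcg and Sct, against 13.0%. The TCF core CTTTGA was in 0 of the 10 windows and in 14.05% of all. The E-box set did not divide the members by what they did in adenoma, since matches were found in Sct and Neurog3 and also in Chga, Gcg, Cck, Tac1 and Gip, which had at most 3 counts there. A match describes the letters of the window only.

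In MIN organoids every member was well above the floor, with 43 to 16111 counts per sample. Compared per length, as CPM per kilobase of the longest coding transcript, Chgb had the highest level with 107.9 ± 45.1 (SD, n = 3), followed by Gcg with 41.2 ± 10.1 and Gip with 27.2 ± 11.9. Chgb encodes chromogranin B, a granule matrix protein, and its lowest MIN sample, with 73.4 CPM per kilobase, was above the highest of any other member, 50.8 for Gcg. Cck (19.5 ± 9.89), Tac1 (15.4 ± 6.19), Chga (13.5 ± 3.51), Neurog3 (10.5 ± 3.78) and Sct (9.61 ± 0.649) followed on the same scale, and the ranges of neighbors from Gcg to Sct overlapped. Pyy (2.03 ± 0.321) and Neurod1 (1.73 ± 0.246) were lowest, and their ranges overlapped each other but no other member's. The spread between the MIN samples was uneven: the coefficient of variation was 6.75% for Sct, 14.2% for Neurod1 and 15.8% for Pyy, and reached 50.7% for Cck. The 6 members Chga, Chgb, Neurod1, Cck, Gcg and Tac1 were highest in MIN 3, the sample in which Neurog3 was lowest.

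**Figure D1:**
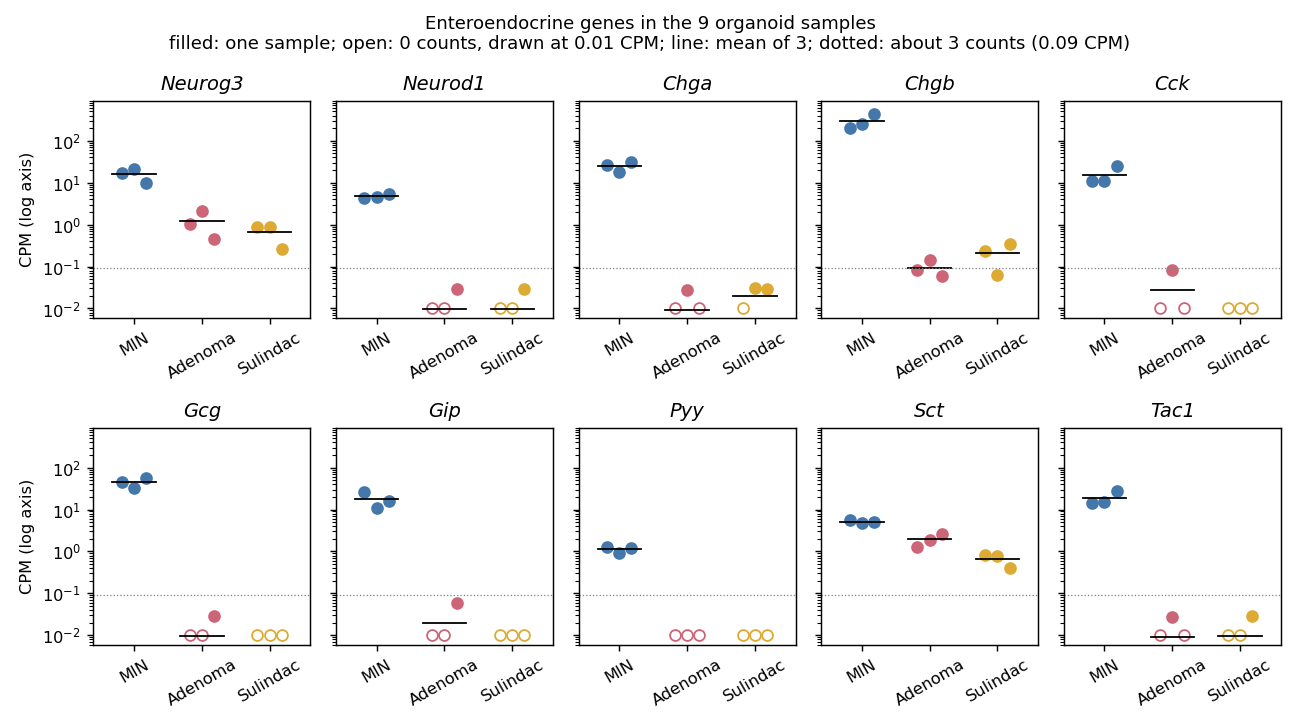
CPM of each of the 10 genes (log axis) in the 3 MIN, 3 Adenoma and 3 Sulindac samples. Filled points are samples, open points are samples with 0 counts drawn at 0.01 CPM, bars are group means and the dotted line is about 3 counts. Only Neurog3 and Sct stayed above the dotted line in every sample.

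The first comparison asks how adenoma organoids differed from the organoids of the adjacent normal epithelium. All 10 members were lower in adenoma by edgeR's quasi-likelihood test at a false discovery rate (FDR) of 1%, where 20.1% of the 13744 genes tested were lower and 18.5% were higher. No adenoma sample overlapped a MIN sample for any member, as was so, in the lower direction, for 31.8% of all genes tested. Of the 10, 8 passed the filter on low counts through the MIN samples alone and so had to differ, and their count is given as a description. Neurog3 and Sct passed in both groups. The members divided into 8 that fell to at most 0.201% of the MIN level where any read was left, and these 2, which kept 7.25% and 37.8% of it.

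Neurog3 encodes the basic helix-loop-helix factor that starts endocrine differentiation and is on only for a short time in endocrine progenitors. It had 715, 983 and 361 counts in the MIN samples (16.1 ± 5.83 CPM, SD, n = 3) and 36, 75 and 16 in the adenoma samples (1.19 ± 0.832 CPM). The difference was -3.75 on the log2 scale (SE 0.50, adjusted p = 0.000282 by edgeR), or 13.8-fold lower with a 95% counting interval of 11.5 to 16.6. Every adenoma sample was below every MIN sample. Neurod1, a factor of the same family that Neurog3 turns on, had 173, 208 and 203 counts in MIN (4.73 ± 0.671 CPM) and 0, 0 and 1 in adenoma, which is 0.201% of the MIN level with a counting interval of 0.00509% to 1.13%. The part of the MIN level that was left was thus larger for Neurog3 than for Neurod1, and their counting intervals did not overlap. In the GENCODE M21 annotation, 13.3% of the 50-base stretches of Neurog3 are shared with Fam241b on the opposite strand and 9.66% of those of Neurod1 with Cerkl or Gm26755, and the strandedness of the counting was not given in the sources used here. The row of Fam241b, under its older symbol 2010107G23Rik, gave 764 to 902 counts in MIN against 718 to 1004 in adenoma, and the part of its reads in the Neurog3 counts was not tested.

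The granins, acidic proteins that fill the dense-core granules, were nearly absent from adenoma. Chga, the usual marker of endocrine cells, had 1085, 847 and 1160 counts in MIN (25.4 ± 6.61 CPM) and 0, 1 and 0 in adenoma. It was 2631-fold lower with a counting interval of 472 to 103954, since a lone read sets the ratio. Chgb had 8252, 11604 and 16111 in MIN (295.6 ± 123.7 CPM) and 3, 5 and 2 in adenoma (0.0940 ± 0.0418 CPM), or 3061-fold lower with an interval of 1664 to 6383. The promoters of Chga and Chgb were the members with a TGACGT match, which starts 44 bases before the start in Chga and 72 in Chgb.

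All 6 hormone genes were lower, and for 5 of them no adenoma sample held more than 3 counts. Gcg, whose product is cut to glucagon-like peptides in L cells, had 1887, 1547 and 2043 counts in MIN (44.9 ± 11.0 CPM) and 0, 0 and 1 in adenoma, a ratio of 4661-fold with an interval of 836 to 184113. Cck, the gallbladder and satiety hormone of I cells, had 455, 508 and 914 counts in MIN (15.6 ± 7.90 CPM) and 0, 3 and 0 in adenoma, 532-fold lower with an interval of 182 to 2584. Gip, the incretin of K cells, had 1070, 498 and 603 counts in MIN (17.7 ± 7.76 CPM) and 0, 0 and 2 in adenoma. The lowest MIN sample of these genes had 455 counts, while no adenoma sample passed 3. Tac1, the precursor of substance P, had 576, 700 and 1025 counts in MIN (18.9 ± 7.61 CPM) and 0, 1 and 0 in adenoma. Pyy, the satiety peptide of the distal gut, had 52, 43 and 44 counts in MIN (1.13 ± 0.178 CPM) and 0 in all 3 adenoma samples, so it was at least 13.3-fold lower, with the floor of 3 counts per library as the limit. Depth therefore bounded the loss of Pyy, the member with the fewest counts, far less tightly than that of Gcg or Chgb.

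Sct, the gene of secretin, the S cell hormone that draws bicarbonate into the duodenum, stood apart. It had 227, 227 and 184 counts in MIN (5.13 ± 0.347 CPM) and 46, 67 and 92 in adenoma (1.94 ± 0.690 CPM). The highest adenoma sample, with 2.67 CPM, was below the lowest MIN sample, with 4.90 CPM. The difference was -1.40 on the log2 scale (SE 0.28, adjusted p = 0.00293 by edgeR), or 2.65-fold lower with a counting interval of 2.26 to 3.11. Without MIN replicate 1 its adjusted p was 0.0114 and without Adenoma replicate 2 it was 0.0120, both above the 1% threshold, while the direction stayed the same. The counting intervals of the level left for Sct (32.1% to 44.3% of MIN) and Neurog3 (6.01% to 8.67%) overlapped neither each other nor that of any member with a count in adenoma, of which the highest bound was 1.13%.

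**Figure D2:**
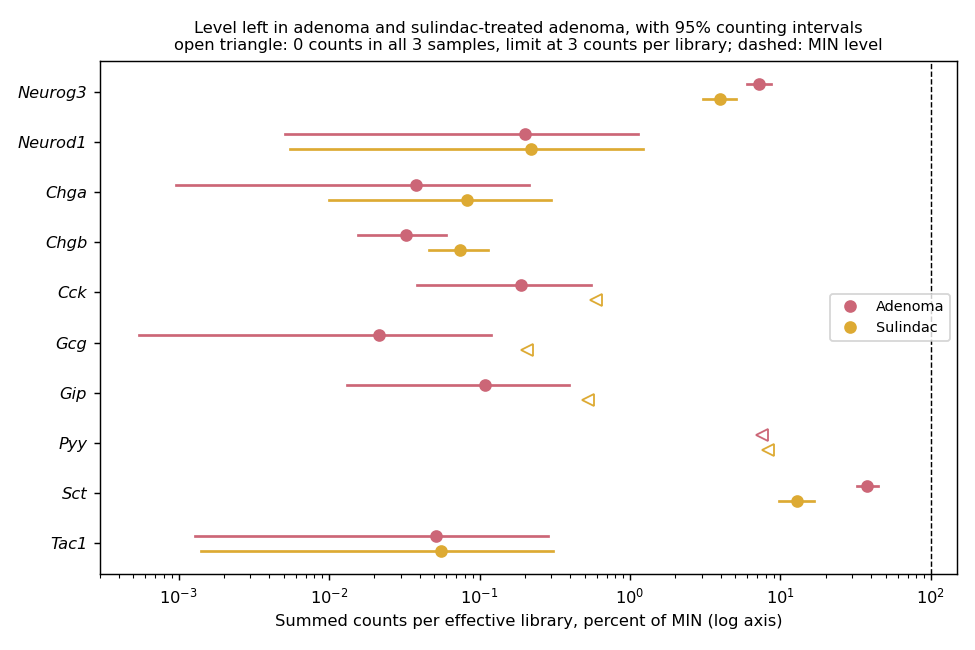
Level of each gene left in Adenoma and Sulindac as a percent of MIN (log axis), from counts summed over 3 samples and divided by effective library size, with 95% counting intervals. Open triangles mark genes with 0 counts in all 3 samples, at the limit set by 3 counts per library. Sct and Neurog3 lie to the right of every other filled point in both groups.

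The second comparison asks what sulindac did to adenoma organoids. The call rate was lower here, with 8.32% of the 12962 genes tested higher and 9.10% lower at an FDR of 1%, and 0 of the 10 members were called by edgeR's test in either direction. Only Neurog3 and Sct had enough counts to be tested, and 1 of these, Sct, was lower at an unadjusted p under 0.05 and by DESeq2 at an FDR of 1%. The other 8 together had 3, 10 and 6 counts in the adenoma samples and 7, 3 and 15 in the sulindac samples.

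Sct went from 46, 67 and 92 counts in adenoma to 25, 25 and 14 with sulindac (0.666 ± 0.226 CPM), 34.0% of the adenoma level with a counting interval of 25.2% to 45.2%. The groups did not overlap, as for 26.2% of all genes tested in the lower direction. The log2 difference was -1.53 (SE 0.37) and its adjusted p of 0.0147 by edgeR missed the 1% threshold. The adjusted p was under 0.01 with scaling by library size alone (0.00859), without the filter on low counts (0.00978), in a fit of all 9 samples (0.00548) and by DESeq2 (0.00305), and was 0.0278 once replicate numbers entered as a block. The call therefore rested on the setting, while the direction was the same in all. Neurog3 had 36, 75 and 16 counts in adenoma and 27, 28 and 9 with sulindac (0.670 ± 0.354 CPM). Its groups overlapped, and the log2 difference of -0.83 (SE 0.60, adjusted p = 0.322 by edgeR) was not larger than the spread between samples. Leaving out samples singly moved it between -1.22 and -0.14.

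Chgb, which had too few counts for the filter, had 3, 5 and 2 counts in adenoma and 7, 2 and 12 with sulindac (0.214 ± 0.145 CPM), and these overlapped. Without the filter its log2 difference was 1.19 with an adjusted p of 0.263 by edgeR. Chga had 0, 1 and 1 counts with sulindac, Neurod1 and Tac1 had 0, 0 and 1, and Cck, Gcg, Gip and Pyy had 0 in all 3 samples. These 7 were at or under the floor in both groups, so a change from adenoma was not detectable at this depth.

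The third comparison sets the sulindac-treated adenomas against MIN and uses the same MIN samples as the first. All 10 members were lower in the sulindac group at an FDR of 1% by edgeR, where 26.8% of the 13551 genes tested were lower and 23.0% higher. The groups did not overlap for any of them, as for 35.8% of all genes in the lower direction, and 7 passed the filter through MIN alone. Neurog3 kept 3.97% of the MIN level (counting interval 3.05% to 5.10%) with a log2 difference of -4.60 (SE 0.45, adjusted p = 4.76e-05 by edgeR). Sct kept 12.8% (9.76% to 16.6%) with a log2 difference of -2.95 (SE 0.29, adjusted p = 3.42e-05 by edgeR). Unlike in adenoma over MIN, this call of Sct held with any sample left out. Chgb was 1340-fold lower with an interval of 876 to 2165. Against a floor of 3 counts per library, Gcg was at least 483.8-fold lower, Gip at least 190.9-fold, Cck at least 168.1-fold and Pyy at least 12.2-fold.

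The make-up of the reads on the members follows from the same counts, not scaled by length, and is given as a description. In a split chosen after the values were seen, Neurog3 and Sct gave 6.50%, 7.05% and 2.41% of all reads on the 10 members in MIN 1, 2 and 3. They gave 96.5%, 93.4% and 94.7% of the 85, 152 and 114 member reads in the adenoma samples. With sulindac the shares were 88.1%, 94.6% and 60.5% of 59, 56 and 38 reads. In MIN the reads were mostly those of granins and hormones, and in the other groups mostly those of Neurog3 and Sct.

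Other genes of the lineage came from 4 lists of 70 genes in all, which cover endocrine transcription factors, granule and prohormone processing, other gut hormones and amines, and nutrient sensing with excitability. In adenoma over MIN, 53 of the 70 were tested, of which 32 were lower, 13 higher and 8 neither by edgeR at an FDR of 1%. Of all genes tested, 20.1% were lower and 18.5% higher. Their median log2 difference was -4.11, or -3.58 with the 7 genes at 0 counts in all adenoma samples set at their bound, against -0.01 for all genes tested. Scaling by library size alone moved the median of all genes to 0.12 and turned the direction of no called gene of the lists. The lists thus held genes with few or no reads left beside genes that rose. Transcription factors summed to 152.9 to 173.4 CPM in MIN and 251.7 to 395.5 CPM in adenoma. Granule genes summed to 142.0 to 174.7 CPM and 228.4 to 236.9 CPM. For sensing genes the sums were 19.5 to 23.4 CPM and 32.8 to 38.5 CPM. Hormones and amines summed to 105.6 to 128.1 CPM and 113.3 to 127.4 CPM. The list sums thus did not fall with the medians, but single genes with high levels weighed heavily in them. From MIN to adenoma the mean level of Sox4 went from 63.7 to 223.1 CPM, of Pam from 18.8 to 127.4 CPM and of Slc18a1 from 16.0 to 104.9 CPM. Ddc, in the same list as Slc18a1, went the other way, from 71.1 to 7.69 CPM. The sums therefore do not describe the lists gene by gene.

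Among 17 endocrine transcription factors, all tested, 10 were lower and 4 higher, with a median of -4.32 (-4.24 with 2 genes at their bound). Rfx6, which the islet and gut endocrine programs need, had 137 to 159 counts in MIN and 0 in all adenoma samples, at least 42.6-fold lower. Insm1, a zinc finger factor of endocrine precursors, had 151 to 227 counts in MIN and 0, 4 and 0 in adenoma, 117.0-fold lower with a counting interval of 45.4 to 430.9. Etv1, an ETS factor, had 86 to 124 counts in MIN and 0, 1 and 0 in adenoma. The genes that rose are not restricted to endocrine cells, and they were named after their values were seen. They were Hhex (log2 difference 2.52), Isl1 (1.99), Sox4 (1.81) and Foxa1 (0.45), and Foxa1 lost its call with any of 5 of the 6 samples left out.

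Of 21 granule and prohormone genes, 19 were tested, 12 were lower and 4 higher, with a median of -3.83. Ptprn2, a membrane protein of secretory granules, had 842 to 1332 counts in MIN and 1, 0 and 2 in adenoma. Pcsk1, the convertase that cuts prohormones, had 552 to 718 counts in MIN and 0, 3 and 1 in adenoma, 389-fold lower with a counting interval of 152 to 1430. The granin genes Scg2 and Scg3 followed Chga and Chgb: Scg2 had 309 to 472 counts in MIN and 3, 0 and 2 in adenoma, and Scg3 had 56 to 62 and 0, at least 16.8-fold lower. The genes that rose, named after their values were seen, were Pam (log2 difference 2.76), whose enzyme amidates peptides, and the exocytosis genes Stx1a (1.26), Cplx2 (1.00) and Vamp2 (0.77). Vamp2 lost its call with any of 4 of the 6 samples left out and Cplx2 without MIN replicate 1.

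Of 17 genes of other gut hormones and amines, 8 were tested, 6 were lower and 1 higher, with a median of -4.00 (-3.55 with Sst at its bound). Tph1, the enzyme that starts serotonin synthesis in enterochromaffin cells, had 358, 439 and 585 counts in MIN and 0, 0 and 1 in adenoma. Sst, the somatostatin gene of D cells, had 40 to 70 counts in MIN and 0 in adenoma, at least 14.9-fold lower. Ghrl, the ghrelin gene, was 72.8-fold lower (counting interval 44.0 to 130.5), with 2 to 7 counts left in each adenoma sample. Nts, the neurotensin gene, was 27.7-fold lower (17.2 to 47.9), with 4 to 7 counts left. Ghrl and Nts thus kept a part of their MIN level between the parts kept by Gcg and by Neurog3. Slc18a1, the vesicular monoamine transporter that enterochromaffin cells use, rose instead, from 16.0 ± 1.32 to 104.9 ± 10.2 CPM (log2 difference 2.71), and was named after its value was seen.

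Of 15 sensing and excitability genes, 9 were tested, and 4 were lower and 4 higher, with a median of -0.74. Abcc8, the sulfonylurea receptor of ATP-sensitive potassium channels, had 72 to 96 counts in MIN and 0 in adenoma, at least 23.8-fold lower. Trpa1, the irritant channel of enterochromaffin cells, and Sstr5, a somatostatin receptor, also had 0 counts in adenoma and were at least 8.67-fold and 6.78-fold lower. Scn3a, a sodium channel, had 78 to 101 counts in MIN and 0, 1 and 0 in adenoma. The genes that rose included Gpr142 (log2 difference 3.47), Ffar4 (1.41) and Cacna1a (1.33), which were named after their values were seen. Gpr142 had 1 to 3 counts in MIN, at or under the floor, and 14 to 19 in adenoma. It passed the filter on low counts through adenoma alone, so its call is given as a description. Of 16 genes for receptors of the members' peptides and their protease, 5 were tested. Dpp4, the brush-border protease that cuts GLP-1, GIP and PYY, had 6330 to 6647 counts in MIN and 0, 1 and 1 in adenoma, and Vipr1, a receptor of vasoactive intestinal peptide, fell by 2.50 on the log2 scale (SE 0.18, adjusted p = 7.32e-06 by edgeR).

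**Figure D3:**
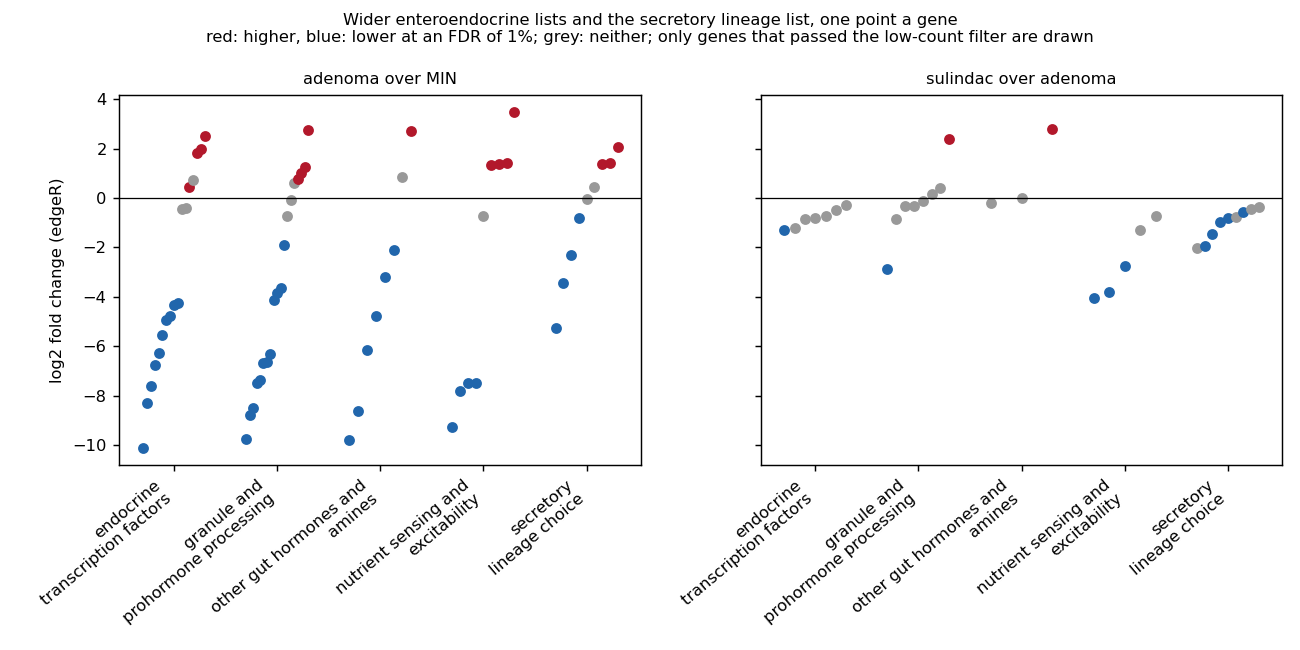
Log2 differences of the genes of the wider lists and of the secretory lineage list in adenoma over MIN (left) and sulindac over adenoma (right), 1 point per gene tested. Blue is lower and red higher at an FDR of 1%, grey neither. In adenoma over MIN 32 of 53 genes of the wider lists were lower, against 20.1% of all genes tested. The position of genes with 0 counts in adenoma depends on the fit's prior count.

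With sulindac over adenoma, only 23 of the 70 genes had enough counts to be tested, and 5 were lower and 2 higher by edgeR at an FDR of 1%. Of all genes tested, 9.10% were lower and 8.32% higher, and the 2 higher genes of 23 are near that share. The median log2 difference was -0.72, against -0.01 for all genes, and library size alone moved that of all genes to -0.18. Ddc, the decarboxylase that makes serotonin and dopamine, moved most in the upward direction: it had 3284, 3697 and 1985 counts in MIN, 420, 216 and 181 in adenoma and 1742, 1860 and 1485 with sulindac. The comparisons share samples pairwise, and its log2 difference was -3.20 in adenoma over MIN (SE 0.31, adjusted p = 4.64e-05 by edgeR), 2.78 in sulindac over adenoma (SE 0.30, adjusted p = 0.000434) and -0.44 in sulindac over MIN (SE 0.17, adjusted p = 0.0581). Tph1, which acts in the step before, had 0 counts in all 3 sulindac samples. Vgf, a granin-like precursor, was the other gene called higher (log2 difference 2.39, adjusted p = 0.00618 by edgeR), and it lost the call with any of the 6 samples left out.

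The 5 genes that fell with sulindac were Cacna1a (log2 difference -4.04), Gpr142 (-3.80), Cplx2 (-2.87), Ffar2 (-2.75) and Sox4 (-1.28). Cacna1a, a voltage-gated calcium channel, had 515, 669 and 496 counts in adenoma and 33, 42 and 17 with sulindac. Gpr142 had 14 to 19 counts in adenoma and 1 in each sulindac sample. It passed the filter on low counts through adenoma alone, so its call is a description here too. The comparison with MIN uses the same adenoma samples, and in it the log2 difference was 1.33 for Cacna1a, 3.47 for Gpr142, 1.00 for Cplx2, -0.74 for Ffar2 and 1.81 for Sox4. Ffar2 lost its call without Sulindac replicate 3, and Sox4 without Sulindac replicate 1 or 3. In sulindac over MIN, 52 of the 70 genes were tested, 36 were lower and 6 higher, with a median of -4.99 (-3.62 with 11 genes at their bound), against -0.03 for all genes. Of all genes tested, 26.8% were lower and 23.0% higher.

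The secretory lineage list holds the Notch ligands, receptor and targets and the factors that decide between absorptive and secretory fates. Of its 10 genes, 9 were tested in adenoma over MIN, and 4 were lower and 3 higher, with a median of -0.05. Of all genes tested, 20.1% were lower and 18.5% higher. Atoh1, a factor of the secretory path, ranged over 655 to 721 counts in MIN but 32 to 72 in adenoma (log2 difference -3.43, SE 0.27, adjusted p = 1.31e-05 by edgeR). Spdef, a factor of goblet and Paneth maturation, fell by 5.26, and Dll1, the Notch ligand of secretory progenitors, by 2.31 on the log2 scale. Hes6 rose by 2.05 (SE 0.15), and the stem and progenitor genes Sox9 (1.42) and Ascl2 (1.37) were also higher. The latter were named after their values were seen. With sulindac over adenoma, 5 of the 9 were lower and 0 higher by edgeR at an FDR of 1%, against 9.10% and 8.32% of all genes. At an unadjusted p under 0.05, 8 were lower and 0 higher. The 5 called were Dll4 (-1.93), Dll1 (-1.44), Hes6 (-0.96), Notch1 (-0.81) and Hes1 (-0.57). Of these calls only that of Dll4 held with any sample left out. Atoh1 had a log2 difference of -0.43 (adjusted p = 0.449 by edgeR) in this comparison.

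Markers of the other epithelial cells moved in the same samples. In adenoma over MIN, 20.1% of all genes tested were lower and 18.5% higher. Among goblet markers, 6 of 6 were lower with a median log2 difference of -3.72. They summed to 1846 to 2042 CPM in MIN but 126.4 to 231.8 CPM in adenoma. All 6 enterocyte markers were lower with a median of -10.16, and they summed to 2744 to 3654 CPM in MIN but 13.9 to 19.8 CPM in adenoma. Of 6 Paneth markers 4 were lower and 2 higher (median -4.46), and of 5 tuft markers tested 2 were lower and 1 higher (median -1.22). Of the 6 markers of epithelium at large 4 were lower and 0 higher (median -1.05). The members summed to 353.1 to 612.3 CPM in MIN, to 2.39 to 4.25 CPM in adenoma and, with sulindac, to 1.11 to 1.94 CPM. Lower levels were thus measured for goblet and absorptive markers as well as for the members, and no test set the lists against each other. Muc2, the main goblet mucin, had 3939 to 5572 counts in the MIN samples and 20 to 24 in the adenoma samples. Lyz1, the Paneth lysozyme, had 153725 to 269090 in MIN and 942 to 2486 in adenoma.

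With sulindac over MIN, all 6 goblet markers, all 6 enterocyte markers and 5 of 6 Paneth markers were lower, against 26.8% of all genes tested. The Paneth list fell further from adenoma to sulindac, from a summed level of 739.2 to 1083 CPM in adenoma to 155.2 to 225.7 CPM. In sulindac over adenoma 5 of the 6 Paneth markers, all but Lyz1, were lower by edgeR at an FDR of 1%. So was 1 of 5 goblet markers tested, against 9.10% of all genes. Pdx1, which the islet list holds and which is also expressed in the proximal gut, had 9 to 16 counts in MIN, 360 to 505 in adenoma and 398 to 444 with sulindac (log2 difference 5.26 in adenoma over MIN, SE 0.30). Pdx1 thus moved against the members in the same samples, and the part of the gut segment in the differences was not tested.

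**Figure D4:**
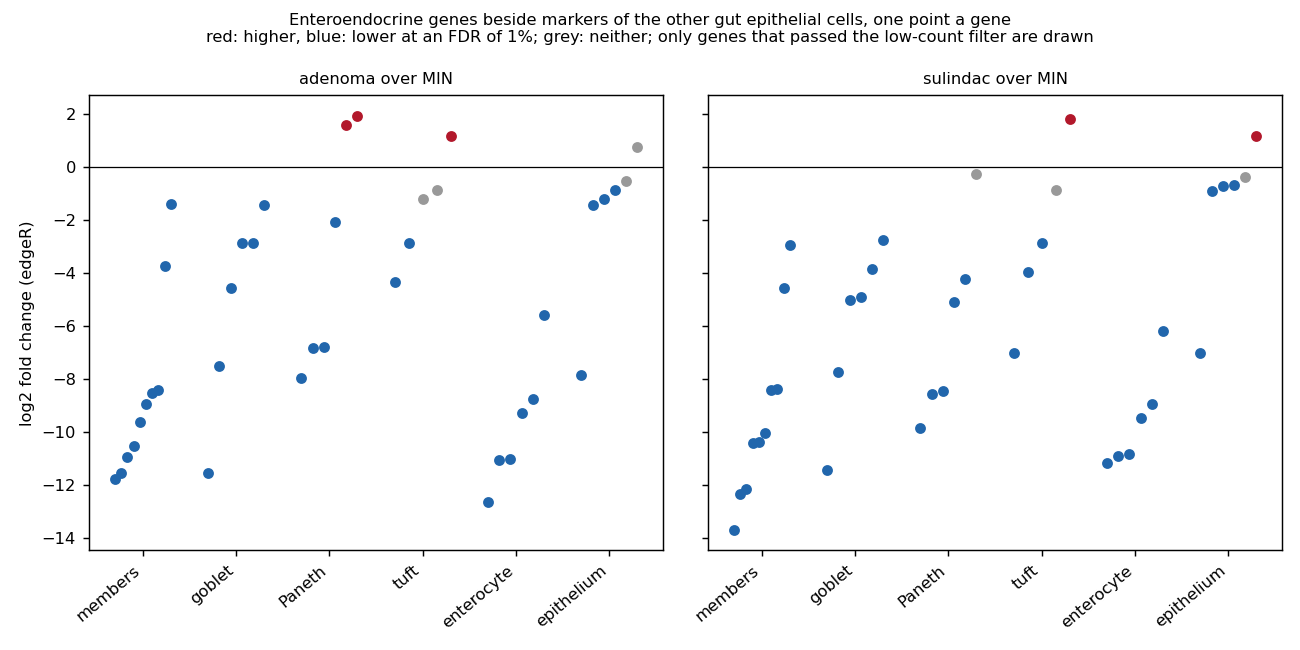
Log2 differences of the 10 members and of 6-gene marker lists of goblet, Paneth, tuft and enterocyte cells and of epithelium at large, in adenoma over MIN (left) and sulindac over MIN (right), 1 point per gene tested. Blue is lower and red higher at an FDR of 1%, grey neither. All members and all goblet and enterocyte markers lie below 0 in both panels, and the position of genes with 0 counts in a group depends on the fit's prior count.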

How the data were processed

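RNA from 9 mouse gut organoid samples was sequenced, and the authors deposited a table of raw counts, not normalized, with a row for each of 23955 gene symbols. The submitters' processing notes name RSEM, Bowtie2 2.2.4 and the mm9 build, without their role. The annotation and the strandedness of counting were not given in the sources used here. For MIN replicate 1 the table gives its runs and, in another column, their total (checked in 23955 rows), and the total stood for the sample. In 27 rows the symbol had become a date, and these were kept unnamed. Totals ranged from 30881206 to 48412477 counts, which sets the floor of 3 counts per library.

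The titles of the samples gave their groups and replicate numbers. From the deposited counts, each pair of groups was fitted with edgeR 4.0.16 in R 4.3.3 (filterByExpr, TMM, glmQLFit with robust estimation, glmQLFTest, Benjamini-Hochberg adjustment over all genes tested, FDR of 1%). Standard errors are the log2 fold change over the square root of F. Counting intervals are exact conditional 95% intervals of the ratio of summed counts per effective library, and cover counting error only. The members and the gene lists were chosen with earlier results of these data known. The genes named are all 10 members and, for each list and comparison, up to 4 genes with the largest change past the FDR without overlap between groups, and others are said to be named after their values were seen. A few genes of the lists are counted but not reported here by name.

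MIN and adenoma samples of the same number deviated from their group means together (correlations across genes of 0.126, 0.113 and 0.193, against -0.07 for other pairs). Deviations from a mean of 3 samples sum to 0, so the value for other pairs partly follows from the same-number values. The main fits took no account of a pairing. As an alternative, the replicate numbers of the titles entered as a block. With this block no call of a member changed. Alternatives were RLE and library-size scaling, no filter or at least 10 counts in every sample, a fit of all 9 samples, the replicate block, DESeq2 1.42.0, an FDR of 5%, a 2-fold minimum and leaving out each sample. Promoters came from RefSeq on GRCm38.p6, and transcript lengths and shared 50-base stretches from GENCODE M21. The fit was tested on simulated counts.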

Additional observations from a re-analysis of the deposited data

How the results depend on the processing

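No member changed direction under any alternative run. In adenoma over MIN, 140 of 142 alternative values of the members stayed on their side of the threshold and 2, both of Sct, did not. In sulindac over MIN all 141 did, and in sulindac over adenoma 24 of 29 did. The 5 others were those of Sct, and with them the count of members lower in sulindac over adenoma rose from 0 to 1 with library size alone, no filter, a fit of all 9 samples, DESeq2 or an FDR of 5%. Requiring 10 or more counts in all samples removes genes that fell, so the counts drop by construction: 2 members and 2 genes of the wider lists lower in adenoma over MIN, and 1 member and 4 genes in sulindac over MIN. In sulindac over adenoma the wider lists had 9 lower genes with library size alone, 8 without a filter, 3 with at least 10 counts, 9 by DESeq2 and 10 at an FDR of 5%, against 5, and 1 higher gene with at least 10 counts, against 2. In sulindac over MIN their higher genes numbered 10 by DESeq2 and 10 at an FDR of 5%, against 6. Over all genes, sulindac over adenoma gave 603 higher and 1983 lower with library size alone, 1778 higher by DESeq2, 2034 higher and 2374 lower at an FDR of 5%, and 365 higher and 703 lower with a 2-fold minimum, against 1078 and 1179. The 2-fold minimum gave 1501 higher and 2104 lower in sulindac over MIN, against 3114 and 3625.

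Leaving out each sample in turn gave 9 to 10 members lower in adenoma over MIN and 10 in sulindac over MIN. In sulindac over adenoma it gave 1 higher and 3 to 6 lower genes of the wider lists, and 423 to 1403 higher and 386 to 1488 lower genes over all. In sulindac over MIN it gave 4 to 9 higher genes of the wider lists. The replicate block gave 2531 higher and 2733 lower genes in adenoma over MIN, against 2549 and 2765, 872 and 1061 in sulindac over adenoma, and 3280 and 3791 in sulindac over MIN. In the last comparisons same-numbered correlations ran from -0.08 to 0.26 and from -0.03 to 0.41. With so uneven values, this check does not settle whether samples of the same number are pairs there. The block changed no call of a member. With it, the log2 difference of Neurog3 in adenoma over MIN was -3.87 and that of Sct -1.44. Depth limits the 8 members with few or 0 counts, whose loss has a lower bound but no precise size.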
